A study of Mus musculus with 6 samples.

Results

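Tubulin isotypes are the closely related alpha- and beta-tubulin proteins, encoded by separate genes, that pair into the subunits of microtubules. The 10 isotype genes described here were taken as a list of names, 4 alpha isotypes (Tuba1a, Tuba1b, Tuba1c and Tuba4a) and 6 beta isotypes (Tubb2a, Tubb2b, Tubb3, Tubb4a, Tubb5 and Tubb6), out of 55450 annotated genes. Their transcription start sites were measured by cap analysis of gene expression (CAGE), which reads a short stretch at the capped end of RNAs. A tag is taken to mark where an RNA began, and no correction for gene length is needed. The libraries were amplified by PCR, so that the number of tags need not equal the number of RNAs. The samples were 3 nuclear RNA libraries of R08, a line of mouse embryonic stem cells (mESCs) kept without feeder cells in serum and leukemia inhibitory factor, and 3 of Oli-neu, a line of mouse oligodendrocyte progenitor cells (mOPCs) kept on poly-L-lysine with N2 supplement, thyroid hormones, bFGF and PDGF-BB. The level of a gene was the number of tags within 500 bp of any of its annotated 5′ ends on its strand, as counts per 1000000 tags of the library (CPM). Each cell type is represented by 1 line in its own medium, and the files carry 1 library label per cell type, so that line, medium, preparation and cell type cannot be told apart. Nothing in the labels says whether replicates are separate cultures, and p-values therefore measure only the spread between these libraries, which may be technical.

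Every microtubule is built from pairs of 1 alpha- and 1 beta-tubulin, and cells differ in which isotypes they use. Tuba1a, Tubb2a, Tubb2b and Tubb3 are known from the developing nervous system, with Tubb3 widely used as a marker of neurons. Tubb4a is known from myelinating oligodendrocytes, and Tubb5, Tuba1b and Tuba1c are broadly expressed. A difference in level between bulk libraries cannot tell fewer transcribing cells from less RNA per cell.

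The libraries held between 16657021 and 40928704 tags, and the most frequent single position took 0.508% to 0.667% of the tags in mESCs and 5.39% to 5.92% in mOPCs. Cell identity was checked with marker lists. All 8 pluripotency markers were lower in mOPCs, 5 of them without a tag there, and their summed level was 3841 to 4182 CPM in mESCs and 41.2 to 46.0 CPM in mOPCs. All 6 tested oligodendrocyte progenitor markers were higher in mOPCs, with a summed level of 8.82 to 10.2 CPM in mESCs and 2292 to 2437 CPM in mOPCs, while the seventh listed marker, Nkx2-2, had no tag in mOPCs. The smallest rise was that of Pdgfra, from 5.51 to 8.33 CPM (1.48-fold). Of the 6 markers of differentiated oligodendrocytes, 5 were tested, of which 4 were higher and 1 was lower, and the sum of the list was 13.5 to 14.0 CPM against 248 to 283 CPM. The 4 astrocyte markers had 2 higher and 1 lower of 3 tested (summed 7.87 to 10.6 against 14.4 to 16.0 CPM), and the 5 fibroblast markers 1 higher and 1 lower of 2 tested (17.9 to 23.4 against 9.67 to 12.3 CPM). Cldn11 of the differentiated oligodendrocyte list, Aqp4 of the astrocyte list and Col1a2, Dcn and Lum of the fibroblast list did not pass the filter on low counts.

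All 10 isotypes had tags in every mESC library, and 7 of them had tags in every mOPC library. With the quasi-likelihood test of edgeR and Benjamini-Hochberg adjustment over all genes, 3 of the 10 isotypes were higher in mOPCs (Tuba1a, Tubb2a and Tubb2b) and 7 were lower. Among the 18490 genes tested, 42.1% were higher and 48.9% lower in mOPCs, so that a call by itself sets no gene apart. The median log2 fold change of mOPCs over mESCs was -2.33 over the 10 isotypes and -0.19 over all genes tested. A change of over 4-fold, a size chosen after the values were seen, was found upwards in 1 isotype (Tubb2a; background 18.4% of all genes tested) and downwards in 6 (background 26.4%). The sum of the 10 isotypes was 2006, 1590 and 1394 CPM in the mESC libraries and 399.7, 377.6 and 370.4 CPM in the mOPC libraries. The groups did not overlap (p = 0.1 by exact permutation, two-sided, below which a design of 3 against 3 cannot go).

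**Figure D1:**
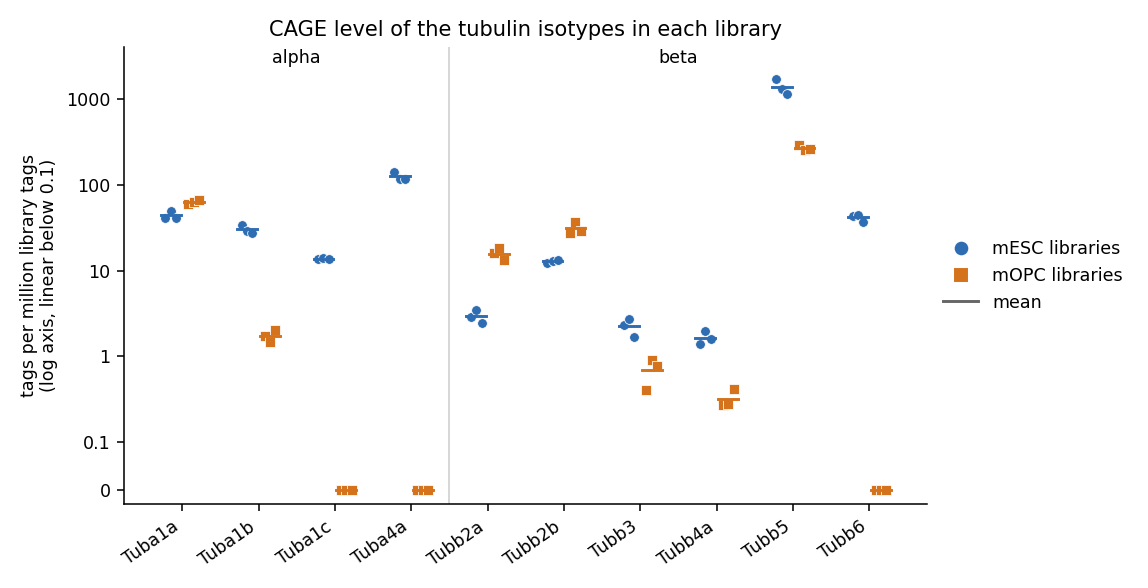
Level of the 10 tubulin isotypes in CPM (vertical axis, logarithmic above 0.1 and linear below it), with 1 point per library and a line at the mean of the 3 libraries of a cell type. Tubb5 is the highest isotype in both cell types, Tuba1a, Tubb2a and Tubb2b are higher in mOPCs, and Tuba1c, Tuba4a and Tubb6 lie at 0 in all mOPC libraries.

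Where the isotypes begin is shown first, since the tags count starts. For the 6 isotypes whose most used start (the main start) lay inside a promoter sequence of RefSeq (build GRCm38.p6, which is mm10), the 30 bases ending at the main start are printed 5′ to 3′ on the gene's strand. The last capital is the main start, and the capitals before it mark the letters TATAA where they were found 24 to 36 bases upstream.
Tuba1a, chr15:98953552-98953581, minus strand: taTATAAggagccgcatccgcccaagtgcC
Tuba4a, chr1:75219254-75219283, minus strand: TATAAgagcggtgcggcactgcagctccgC
Tubb2a, chr13:34078008-34078037, minus strand: TATAAaaggcggtgctgggggagggcgacT
Tubb3, chr8:123411523-123411552, plus strand: TATAAgagggcgcggcggaggctgccgatC
Tuba1b, chr15:98934474-98934503, minus strand: cgtgaccagcgaccgcgcccgcccctcccC
Tubb4a, chr17:57087601-57087630, minus strand: aaatatagagacgcccgggggcgcagagaC
At this distance TATAA was found in 4 isotypes, in Tuba1a 27 bases and in Tuba4a, Tubb2a and Tubb3 29 bases upstream of their main start. The same letters stood at this distance in 3.12% of the 7363 genes with at least 50 pooled tags at a main start inside a RefSeq promoter. Searched on both strands of the whole 300-base promoters, TATAA was in 4 of the 8 isotype promoters (24.9% of 32851 promoters), GGGCGG in 6 (35.7%) and CCAAT in 4 (37.4%). These matches describe letters only, and no binding was measured.

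Among the alpha isotypes, Tuba4a was the highest in mESCs and had no tag within its windows in mOPCs. Its level was 142.3, 117.2 and 117.8 CPM in the mESC libraries, and 0 in each mOPC library, where 3 tags over the pooled mOPC libraries would be 0.0327 CPM. Against that limit it was at least 3985-fold lower in mOPCs. Tuba1c, a broadly expressed alpha isotype, was at 13.5, 14.1 and 13.6 CPM in mESCs and at 0 in each mOPC library, at least 417-fold lower. Beyond the windows, the body of each of these genes held 4 tags over the 3 mOPC libraries. Such an absence also occurred outside the tubulins. Of the 10018 genes with a mean over 10 CPM in mESCs, 340 (3.39%) had no tag in any mOPC library. Over 100 CPM it was 47 of 2246 genes (2.09%). Of the 7 isotypes over 10 CPM in mESCs, 3 (Tuba1c, Tuba4a and Tubb6) had none. Tags of the gene Stk16 on the opposite strand, which lies beside Tuba4a, were at 31.6 ± 0.779 CPM in mESCs and 56.2 ± 1.57 CPM in mOPCs (SD, n = 3).

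Tuba1b fell from the mid-range of the alpha isotypes to a trace. It was at 34.0, 29.1 and 27.6 CPM in mESCs and at 1.73, 1.46 and 2.05 CPM in mOPCs. No mOPC library came near the lowest mESC library. The log2 fold change was -4.12 ± 0.14 (SE), a 17.4-fold decrease (edgeR quasi-likelihood test, Benjamini-Hochberg adjusted p = 1.92e-33). In mOPCs only 65.9% ± 7.38 of the tags of the gene and its windows lay within 500 bp of a 5′ end, against 92.5% ± 1.96 in mESCs (SD, n = 3). An annotated antisense gene, Gm41396, lies opposite the Tuba1b window, at 13.3 CPM in mESCs and 6.40 CPM in mOPCs, and its tags were not counted for Tuba1b. The body of another annotated gene, Gm49450, covers all 1128 bases of the Tuba1b window on the same strand.

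Tuba1a, known from young neurons, was the only one of the 4 alpha isotypes that was higher in mOPCs. It was at 41.5, 50.1 and 40.8 CPM in mESCs and at 59.9, 62.9 and 65.9 CPM in mOPCs. All mOPC libraries lay above all mESC libraries. The difference was 0.49 ± 0.09 on the log2 scale (SE), or 1.41-fold (edgeR quasi-likelihood test, Benjamini-Hochberg adjusted p = 1.16e-06). This value rests on the width of the window. The main start of Tuba1a lies 151 bases inside the annotated first exon, so that a window of 100 bp kept only 30, 9 and 8 tags in mESCs and 24, 21 and 27 in mOPCs, and the log2 difference of 0.36 then had an adjusted p of 0.276 (edgeR, Benjamini-Hochberg). Nearly the same tags also lie in the windows of the annotated gene Gm49450, whose level was 44.1 CPM in mESCs and 63.1 CPM in mOPCs, and the tags cannot be divided between the 2 annotations.

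The make-up of the alpha tags therefore differed between the cell types. In mESCs, Tuba4a took 61.5%, 55.7% and 59.0% of the tags of the 4 alpha isotypes, and Tuba1a 18.0%, 23.8% and 20.4%. In mOPCs, Tuba1a took 97.2%, 97.7% and 97.0%, and the remainder was Tuba1b (2.70% ± 0.39, SD, n = 3). Tuba1b had 14.1% ± 0.498 and Tuba1c 6.43% ± 0.526 of the alpha tags in mESCs (SD, n = 3). The first exon of Tuba1b holds a stretch of 100 bases without tags that includes its RefSeq start, described below. Whether tags of Tuba1b were lost there was not tested, so that all 4 alpha shares hold for the counted tags only. None of the 4 shares overlapped between the cell types (p = 0.1 each by exact permutation, two-sided, the smallest possible). Without Tuba1b, an alternative added after seeing the data, Tuba4a had 68.4% and Tuba1a 24.1% in mESCs, and Tuba1a had all alpha tags in mOPCs. Within 100 bp windows, which leave out the main start of Tuba1a, the share of Tuba1b was instead 43.9 percentage points higher in mOPCs than in mESCs.

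**Figure D2:**
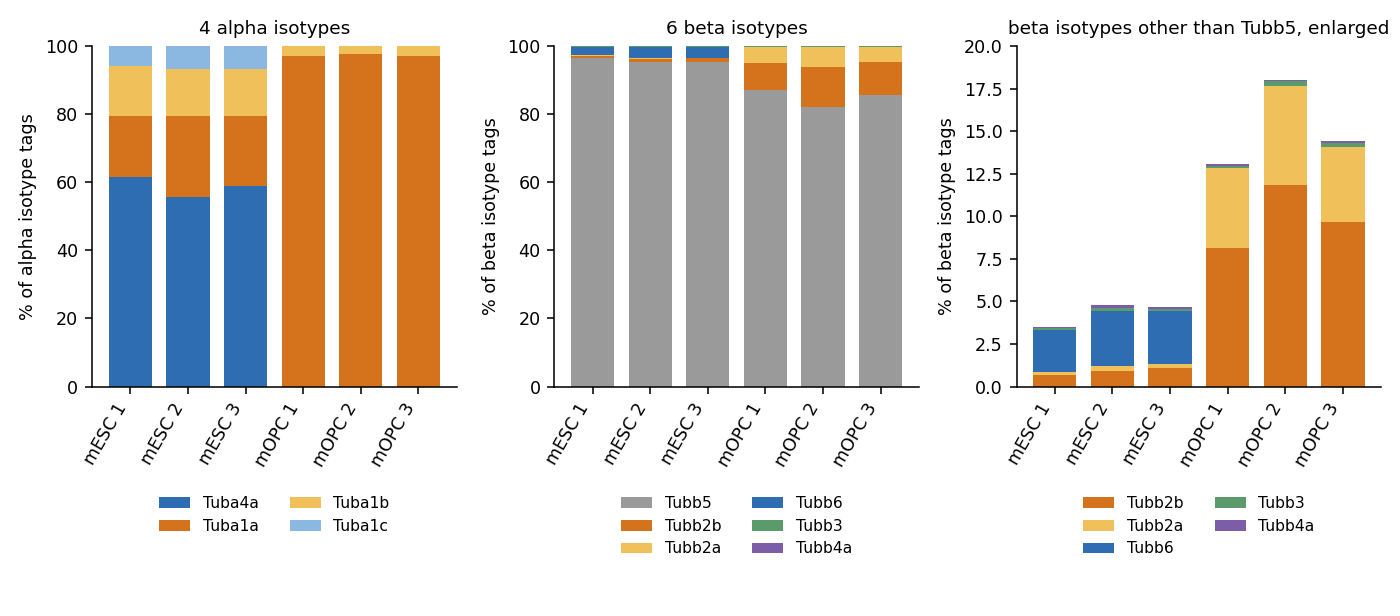
Share of each isotype in the tags of the 4 alpha isotypes (left) and of the 6 beta isotypes (middle, with the isotypes other than Tubb5 enlarged on the right), in percent, with 1 bar per library. Tuba4a is the largest alpha share in the 3 mESC libraries and Tuba1a takes 97.0% to 97.7% in the 3 mOPC libraries, while Tubb2b and Tubb2a take more of the beta tags in mOPCs.

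Tubb5, a broadly expressed beta isotype, held most beta tags in both cell types and was much lower in mOPCs. Its level was 1712, 1314 and 1139 CPM in mESCs and 293.9, 256.8 and 258.7 CPM in mOPCs. The mESC libraries were spread over a wider range than the mOPC libraries, but the groups stood far apart. The log2 fold change was -2.39 ± 0.14 (SE), a 5.24-fold decrease (edgeR quasi-likelihood test, Benjamini-Hochberg adjusted p = 1.45e-09). The share of Tubb5 in the beta tags was 96.5%, 95.2% and 95.3% in mESCs and 86.9%, 82.0% and 85.6% in mOPCs, without overlap. Tubb6, a further beta isotype, was at 43.6, 44.8 and 37.2 CPM in mESCs. It had no tag in its windows or body in any mOPC library and was at least 1290-fold lower there, while Afg3l2, next to it on the opposite strand, had 131.3 ± 13.2 CPM in mESCs and 134.0 ± 12.1 CPM in mOPCs (SD, n = 3).

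The neural isotypes Tubb2a and Tubb2b were the 2 of the 6 beta isotypes with higher levels in mOPCs. Tubb2a was at 2.85, 3.48 and 2.44 CPM in mESCs and at 16.1, 18.2 and 13.2 CPM in mOPCs. Tubb2b was at 12.4, 12.9 and 13.2 CPM in mESCs and at 27.4, 37.0 and 29.3 CPM in mOPCs. For both genes every mOPC library exceeded every mESC library. Tubb2a rose by 2.41 ± 0.15 on the log2 scale (SE), or 5.31-fold, and Tubb2b by 1.26 ± 0.11, or 2.40-fold (edgeR quasi-likelihood test, Benjamini-Hochberg adjusted p = 9.83e-22 and 2.75e-16). In the beta tags, Tubb2b had 0.914% ± 0.206 in mESCs and 9.87% ± 1.87 in mOPCs, and Tubb2a had 0.206% ± 0.0459 and 4.97% ± 0.754 (SD, n = 3). Counted in gene bodies, which leave out the main start of Tubb2a 1 base before its annotated 5′ end, the difference in its share was 1.45 percentage points in place of 4.77. Neither share overlapped between the cell types (p = 0.1 by exact permutation, two-sided, the smallest possible).

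Tubb3 and Tubb4a, the isotypes known as marks of neurons and of myelinating oligodendrocytes, were rare in both lines. Tubb3 had 88, 45 and 31 tags in mESCs, or 2.32, 2.70 and 1.68 CPM, and 9, 26 and 32 tags in mOPCs, or 0.411, 0.902 and 0.782 CPM. Tubb4a had 53, 33 and 29 tags in mESCs, or 1.40, 1.98 and 1.57 CPM, and 6, 8 and 17 tags in mOPCs, or 0.274, 0.277 and 0.415 CPM. Both were lower in every mOPC library than in any mESC library. Tubb3 fell by 1.65 ± 0.26 and Tubb4a by 2.27 ± 0.31 on the log2 scale (SE; edgeR quasi-likelihood test, Benjamini-Hochberg adjusted p = 3.95e-08 and 1.38e-09). Their shares of the beta tags overlapped between the cell types, 0.156% ± 0.0350 against 0.223% ± 0.0889 for Tubb3 and 0.118% ± 0.0345 against 0.102% ± 0.0306 for Tubb4a (SD, n = 3; p = 0.4 and 0.8 by exact permutation, two-sided).

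Much of the remaining signal of these 2 genes in mOPCs lay away from their 5′ ends. For Tubb3, 79.3%, 91.8% and 77.5% of the tags of the gene body and windows were within 500 bp of a 5′ end in mESCs, and 34.6%, 44.8% and 46.4% in mOPCs. For Tubb4a the values were 96.4%, 94.3% and 96.7% against 42.9%, 28.6% and 40.5%. The groups did not overlap for either gene (p = 0.1 by exact permutation, two-sided, the smallest possible), although the mOPC shares of Tubb4a rest on 14, 28 and 42 tags. For Tubb5 the share was 99.3% in both cell types, and for Tubb2a the groups also overlapped. It was lower in mOPCs without overlap for Tuba1b, as given above, and for Tuba1a (98.9% against 96.9%). For Tubb2b it was higher without overlap (93.2% in mESCs and 96.4% in mOPCs). How often this share differed over all genes was not tested. Counting all tags in the gene body in place of the windows, the log2 fold change was -0.60 for Tubb3 and -1.04 for Tubb4a, and within 1000 bp windows it was -1.295 for Tubb4a. Tubb3 also lies inside the annotated gene Gm20388 on the same strand. Of the 8 neuron markers, 2 were higher (Gap43 and Syt1) and 6 lower in mOPCs, with a summed level of 318.5 to 348.8 CPM in mESCs and 440.4 to 518.2 CPM in mOPCs, and Rbfox3, Snap25, Stmn2, Nefl and Nefm had no tag in mOPCs. The part of such markers in the tubulin levels was not tested.

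Ordered by mean level, mESCs ran from Tubb5 (1388 CPM) through Tuba4a (126 CPM), Tuba1a (44.1), Tubb6 (41.8), Tuba1b (30.2), Tuba1c (13.7), Tubb2b (12.8), Tubb2a (2.93) and Tubb3 (2.24) to Tubb4a (1.65 CPM). Tuba1a and Tubb6 overlapped, as did Tubb2a with Tubb3 and Tubb3 with Tubb4a, and the other neighbours in this order did not. In mOPCs the order was Tubb5 (269.8 CPM), Tuba1a (62.9), Tubb2b (31.2), Tubb2a (15.8), Tuba1b (1.75), Tubb3 (0.698) and Tubb4a (0.322 CPM), with an overlap only between Tubb3 and Tubb4a, followed by the 3 isotypes at 0. The alpha isotypes together summed to 213.8 ± 16.1 CPM in mESCs and 64.7 ± 3.18 CPM in mOPCs (SD, n = 3), and the beta isotypes to 1450 ± 296 CPM and 317.9 ± 18.3 CPM. The alpha share of all 10 isotypes was 11.5%, 13.2% and 14.3% in mESCs and 15.4%, 17.1% and 18.4% in mOPCs. These ranges did not overlap, but within 100 bp windows the alpha share in mOPCs minus that in mESCs was -9.90 percentage points.

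The genes whose levels over the 6 libraries were closest to an isotype were found by the Euclidean distance of log2(CPM + 1). For Tuba4a they were Apela and Gm45886, 2 annotations with the same levels (distance 0.107), and Syce2 (0.125), all near 0 in mOPCs. For Tubb5 they were Canx (0.737), Gm17511 (0.783) and Hist1h1e (0.789). For Tuba1a they were Gm49450 (0.00953), which shares its tags, Zfp354c (0.184) and Actr10 (0.193).

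The shape of the start region differed among isotypes and was sharpest for Tuba4a. In mESCs, 89.0%, 91.3% and 89.5% of its tags began at the single base printed last in its sequence above. Tuba1a began at its main start with 75.1% ± 4.11 of its tags in mESCs and 73.4% ± 2.48 in mOPCs, and Tubb2b with 56.4% ± 3.21 and 57.0% ± 3.43 (SD, n = 3). Tubb5 used a pair of bases, with 30.8% ± 2.89 and 25.7% ± 0.963 of its tags 5 bases downstream of the main start. Tuba1b was spread out, with 12.2% ± 1.23 of its mESC tags at its main start, and the central 80% of them covered 126, 123 and 127 bp, against 6 bp for Tubb5 in every library (SD, n = 3). In mOPCs this width of Tuba1b was 541, 479 and 572 bp, from only 38, 42 and 84 tags. The main start of Tuba1b was the most used position in 3 of the 6 libraries, that of Tubb2a in 4, and those of the other isotypes in every library with tags.

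The base just upstream of the main start took a larger share of the tags in mOPCs for Tubb2a and Tuba1a. For Tubb2a the share of tags 1 base upstream of the main start was 19.4%, 15.5% and 11.1% in mESCs and 41.2%, 33.7% and 35.4% in mOPCs. For Tuba1a it was 8.13%, 7.43% and 6.92% in mESCs and 14.1%, 12.2% and 12.9% in mOPCs. All mOPC libraries were above all mESC libraries for both genes (p = 0.1 by exact permutation, two-sided, the smallest possible). Over the 8646 genes with at least 20 tags at their main start in every library, this share was without overlap higher in mOPCs for 16.4% and lower for 18.3%, and its median was 1.18% in mESCs and 1.14% in mOPCs. Of the 4 isotypes in that set, 2 were higher and Tubb2b and Tubb5 overlapped. Tubb4a, which has fewer tags and is not in that set, went the other way without overlap, with 1.89%, 3.03% and 6.90% in mESCs and 0 in each mOPC library. The files hold no read sequences, and whether the first base of these tags matched the genome was not tested.

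At the main start itself, Tubb5 took a larger share in every mOPC library (65.7%, 64.7% and 62.5%) than in any mESC library (61.8%, 54.6% and 56.6%). Tubb2a took a smaller share, 31.3%, 35.8% and 33.0% against 44.4%, 50.0% and 48.9%. Over the same 8646 genes, 31.3% were without overlap higher and 35.9% lower in mOPCs, so that 1 of 4 isotypes in each direction is near the background. In Tubb3, a second start lay at the first letter of the TATAA printed above, 29 bases upstream, with 11, 5 and 2 tags in mESCs and 0, 1 and 1 in mOPCs.

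**Figure D3:**
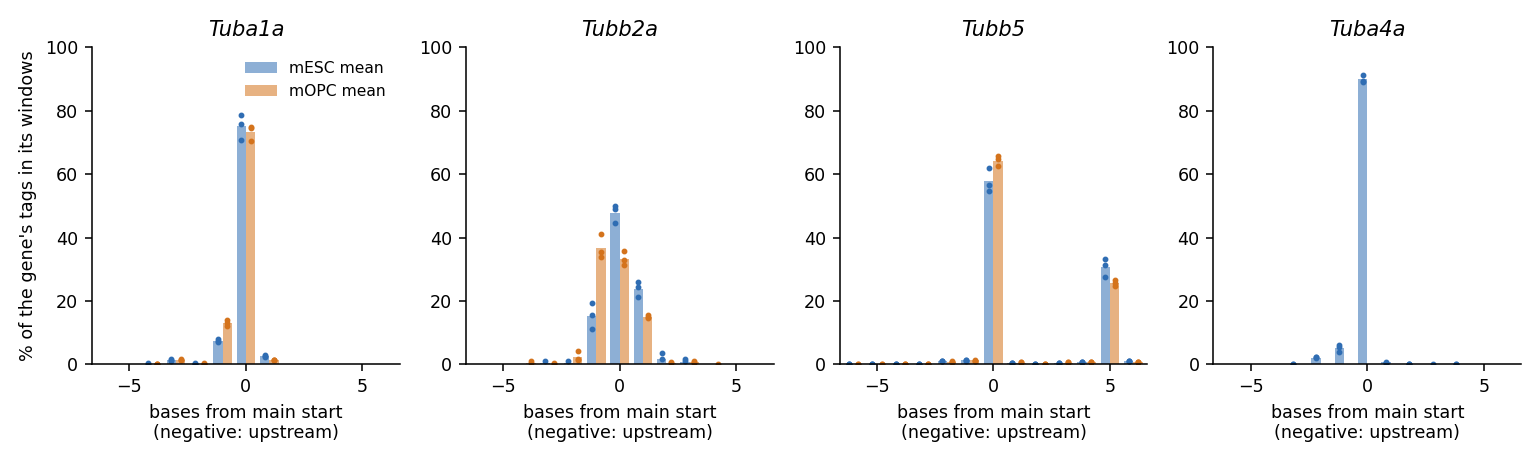
Share of each gene's tags (percent of the tags within its windows) by distance from its main start in bases, negative upstream, as bars for the mean of 3 libraries and points for single libraries. The share 1 base upstream is higher in mOPCs for Tuba1a and Tubb2a, Tubb5 has a second start 5 bases downstream, and Tuba4a has no mOPC bars because it has no tags there.

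Stretches without tags were found in the first exons of several isotypes. The longest run without a tag in any library was 126 bases in Tuba1c, 100 in Tuba1b, 87 in Tubb3 and 83 in Tubb4a, and 8 to 31 bases in the other 6 isotypes. Of the runs over 31 bases, that of Tuba1b is described further because many tags lie directly before it. In Tuba1c 106 tags lay 5′ of the run, and 174 and 143 tags lay 5′ of those in Tubb3 and Tubb4a. Tuba1a had 8178 tags 5′ of a shorter run of 18 bases, which begins 2 bases downstream of its main start. Whether tags of Tuba1a were lost in that run was not tested. Within the first exon of Tuba1b-201 (chr15:98934333-98934565, mm10), 100 consecutive bases had no tag in any of the 6 libraries (chr15:98934339-98934438). Just 5′ of them, 95 of 127 positions held 1790 tags. The RefSeq start of Tuba1b, at position 98934390, lies inside the gap, and a GENCODE 5′ end of Tuba1b, at 98934438, is its first base. The edge of the gap is shown with its first 15 bases in capitals, after the 15 bases before it, which hold tags.
Tuba1b, chr15:98934424-98934453, minus strand: ggagcgggcgcctccGCCTCATTGCGTTAC
Apart from Gm49450, which overlaps this locus, no other annotated transcript or RefSeq promoter held the 27 bases from any of 80 positions of the gap, with up to 2 mismatches allowed, and the same held for the main starts of the isotypes that could be looked up. The rest of the genome and the opposite strand of these transcripts and promoters were not searched, nor were tags shorter than 27 bases, which the authors also kept. Whether tags from the gap were lost by keeping unique alignments only was therefore not tested. With no tag in the gap, the values of Tuba1b given above count starts upstream of it and tags downstream. Within 100 bp of a 5′ end lay 1269, 473 and 493 of its 1287, 484 and 509 counted tags in mESCs. In mOPCs it was 30, 29 and 65 of 38, 42 and 84, so that tags farther out weigh more there. Along their whole transcripts, Tuba1a, Tuba1b and Tuba1c each shared an exact run of 27 bases with 31 other annotated genes, 24 of them pseudogenes. Tubb5 did so with 636 genes, Tubb6 with 94, Tuba4a with 20 and the other isotypes with 9 to 11.

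**Figure D4:**
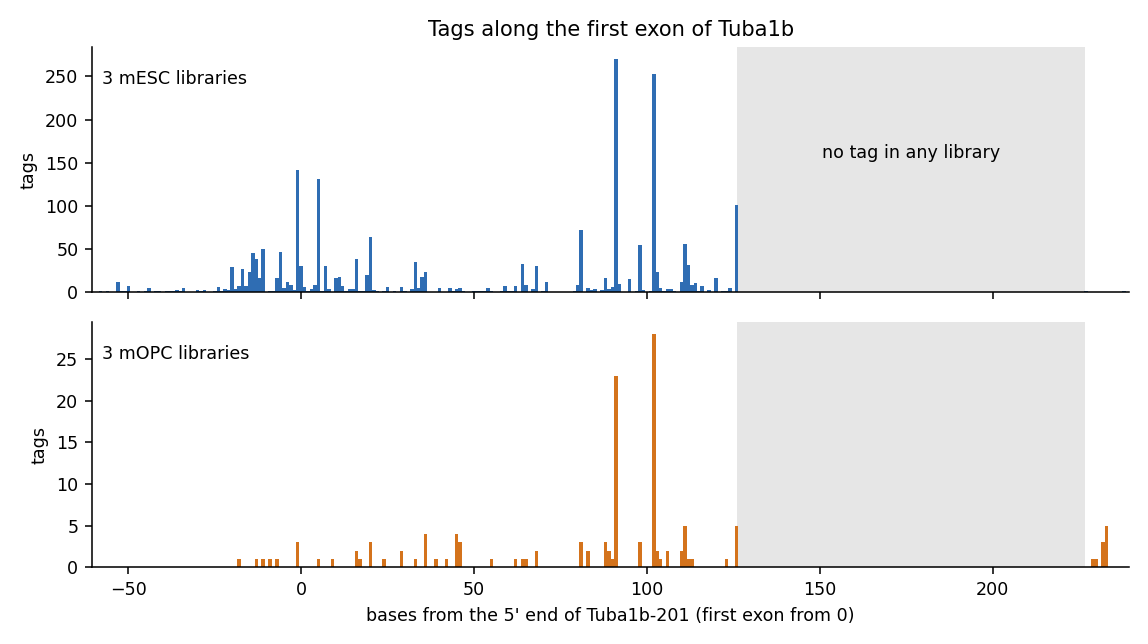
Tags summed over the 3 libraries of each cell type (vertical axes, on their own scales) by distance in bases from the annotated 5′ end of Tuba1b-201. Tags reach up to the edge of the grey area, and none of its 100 bases has a tag in any of the 6 libraries.

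The other tubulin genes were mostly lower in mOPCs, with 2 of the 7 tested higher and 5 lower. Tubb4b, the remaining broadly expressed beta isotype, was at 130.4, 136.8 and 125.0 CPM in mESCs and at 34.0, 33.1 and 34.6 CPM in mOPCs, a log2 fold change of -1.97 ± 0.09 (SE; edgeR, Benjamini-Hochberg adjusted p = 1.03e-28). Counted with the 6 listed beta isotypes, an alternative added after seeing the data, it took 8.44% ± 1.40 of the mESC and 9.65% ± 0.574 of the mOPC beta tags (SD, n = 3), and the libraries of the cell types overlapped. Tuba3a, an alpha isotype best known from testis, had 1230 tags in mESCs and 2 in mOPCs, a ratio of 773 with a 95% exact binomial interval of 213.5 to 6388 that covers counting error only. Tubg1, the gamma-tubulin that nucleates microtubules, fell by 0.54 on the log2 scale, and the second gamma-tubulin, Tubg2, had 230 tags in mESCs and 1 in mOPCs (ratio 289, interval 51.4 to 11460). The centriolar tubulins Tubd1 and Tube1 rose by 0.87 and 0.24, and Tubal3 fell by 2.04 with 36 and 11 tags. Tuba3b and Tubb1, with 25 and 23 tags in mESCs, had none in mOPCs, and Tuba8 had 15 and 4 tags, and these 3 did not pass the filter on low counts.

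Genes that fold tubulin were mostly lower in mOPCs. Of 21 such genes, 15 were lower, 5 higher and 1 not called, and their median log2 fold change was -1.80. The largest changes were in Tcp1 (-2.61) and Cct6a (-2.60), subunits of the chaperonin that folds tubulin and actin, and in Tbca (-2.55), a cofactor for beta-tubulin. The genes for microtubule destabilising and severing proteins had 10 lower and 4 higher of 14 tested (median -1.02). Stmn2, a neuronal stathmin, was at 283 CPM in mESCs and without a tag in mOPCs, at least 8653-fold lower, while Stmn4 had 1 tag in mESCs and 2343 in mOPCs (ratio 1865, 95% exact binomial interval 334.3 to 73680) and Fign, a severing enzyme, rose by 3.13 on the log2 scale.

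Genes for proteins that bind or mark finished microtubules were mostly higher. All 8 plus-end genes were called, 7 higher and 1 lower (median log2 fold change 1.86), and the end-binding genes Mapre3 and Mapre2 and the linker Clip2 rose by 5.86, 3.10 and 4.33. Of the 16 lattice-binding genes tested, 12 were higher and 4 lower (median 1.36). Mapt, which encodes tau, was at 1.72 ± 0.159 CPM in mESCs and 290.3 ± 22.4 CPM in mOPCs (SD, n = 3), and Dclk1 rose by 6.11 on the log2 scale, while Map7d3 was without a tag in mOPCs and at least 1568-fold lower. Among the 22 tubulin-modifying enzymes tested, 13 were higher, 6 lower and 3 not called (median 0.85). The acetyltransferase of alpha-tubulin, Atat1, rose by 4.52 on the log2 scale, from 6.71 ± 0.782 to 155.2 ± 16.8 CPM (SD, n = 3), and Ttll9, of the tubulin ligase family, fell by 4.52. Agbl1, of the carboxypeptidases that shorten glutamate chains, had no tag in mESCs and was higher in mOPCs by at least 7.80 on the log2 scale.

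The gamma-tubulin ring complex was mixed, with 4 genes higher, 2 lower and 2 not called of 8 (median 0.12). Mzt1, its small subunit, fell by 3.75 on the log2 scale, and Tubgcp6 and Nedd1 rose by 1.72 and 1.19. Ttc5, which recognises nascent tubulin chains when tubulin mRNAs are degraded in response to free tubulin, was at 8.46 CPM in mESCs and 9.56 CPM in mOPCs, a log2 difference of 0.17 with a 95% interval of -0.10 to 0.44 (edgeR quasi-likelihood test, Benjamini-Hochberg adjusted p = 0.229). These lists are described against the background of 42.1% higher and 48.9% lower among all genes tested, and no list was tested as a set.

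**Figure D5:**
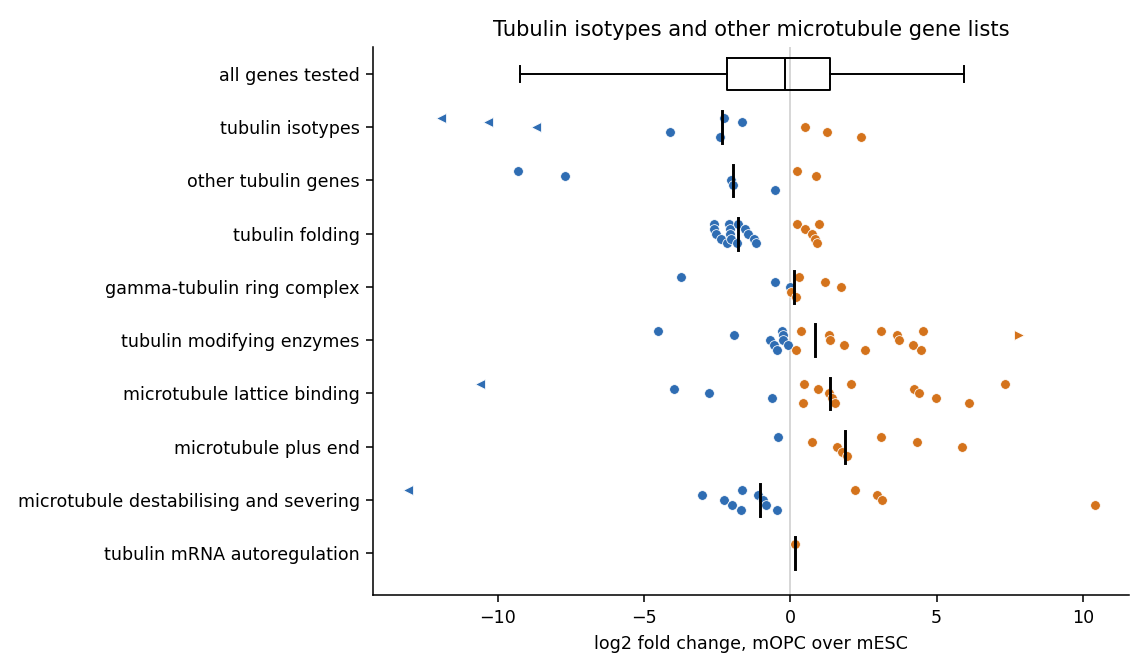
Log2 fold change of mOPCs over mESCs for the 10 tubulin isotypes and the tested genes of 8 microtubule gene lists, with 1 symbol per gene and a black line at each list's median. The box shows the quartiles and the whiskers the 5th to 95th percentiles of all 18490 genes tested, and triangles mark genes without a tag in a cell type, drawn at the bound that 3 pooled tags give.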

How the data were processed

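Nuclear CAGE libraries of R08 mESCs (n = 3) and Oli-neu mOPCs (n = 3) were compared. The deposited values are raw counts, which the authors made by adding up, for each position and strand of mm10, the uniquely aligned tags that begin there. The methods name bowtie, whereas the submitters' processing notes list BWA 0.5.9 and CASAVA 1.8, and which aligner made the files was not settled. Tags within 500 bp of the 5′ ends of GENCODE vM21 transcripts were summed per gene with Python 3.11.15 and divided by the library total (CPM). Genes were tested on the counts with edgeR 4.0.16 (quasi-likelihood, robust, TMM, filterByExpr; R 4.3.3), with DESeq2 1.42.0 as the alternative. On simulated counts of 17901 genes for this comparison, 195 of 200 planted changes of 2 on the log2 scale were recovered, and 11 of the 206 genes called were false. Shares were compared by two-sided exact permutation tests. The main start was the position with the most pooled tags in the windows. Bounds used 3 tags over the pooled libraries, and bounds and intervals cover counting error only. Alternatives were other windows, scalings, filters and tools, a replicate block and each library left out. Isotypes and gene lists were chosen with earlier results of these data known. Named genes were all isotypes and other tubulins, the 3 largest changes of each list, the 3 nearest genes of the leading isotypes and, beyond these, markers and neighbouring or overlapping genes.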

Additional observations from a re-analysis of the deposited data

How the results depend on the processing

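Windows of 100 bp leave out the main start of Tuba1a. The mOPC minus mESC difference then turned to 43.9 percentage points for the Tuba1b share of alpha tags and to -9.90 for the alpha share of all isotypes, that for the Tuba1a share was 38.2 in place of 76.6 points, the log2 fold change of Tuba1a (0.36) lost its call, and Tubb4a did not pass the filter. For rare beta isotypes, groups that overlapped in the main counting no longer did for Tubb4a with 1000 bp windows (0.0916 points) and gene bodies (0.155 points, against -0.0158 in the main counting), for Tubb3 with gene bodies (0.351 points) and for Tubb3 without mOPC replicate 1 (0.117 points, range over the libraries left out 0.0342 to 0.117). Gene bodies, which leave out the main starts of Tubb2a and Tubb6 1 and 10 bases before the annotated 5′ end, gave share differences of 1.45 and -0.80 points in place of 4.77 and -2.94. The cause of the shifts in Tubb3 and Tubb4a was not tested. All other settings kept the direction and call of the 10 fold changes, and leaving out single libraries gave 7675 to 8097 genes higher and 8845 to 9380 lower in mOPCs. With the replicate number as a block there were 7794 and 9039, against 7788 and 9044 without it. Same-numbered libraries deviated from their group means with correlations of 0.0113, 0.0614 and 0.0137, and differently numbered ones with -0.0652 to 0.0527. Not every library correlated best with that of its own number. Whether same-numbered libraries share a preparation was not tested. The median log2 fold change of all genes was -0.23 with the size factors of DESeq2 and -0.16 with library totals. Depth limits Tubb3 and Tubb4a most, with 67 and 31 pooled tags in mOPCs.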
